A study of Mus musculus with 45 samples.

Results

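The mitosis and G2/M genes are 58 genes that act between the end of DNA replication and the separation of the daughter cells. They were taken from a list of gene symbols, matched to the identifiers of the deposited tables through the mouse GENCODE annotation. All 58 were found among the 55450 gene identifiers of the slice microglia table and the 47643 of the adult microglia table, and 56 among the 43411 of the brain tissue table, where *Mki67* and *Kif20b* were not analysed here. The rule uses no measured value, and the list was drawn up with earlier results of these data known.

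Entry into mitosis is driven by cyclin B bound to *Cdk1*, and the Aurora and Polo kinases then build the spindle. Kinetochores tie the chromosomes to the spindle, a checkpoint holds the anaphase-promoting complex back until every chromosome is attached, and condensin, the chromosomal passenger complex and kinesin motors shape, align and part the chromosomes before cytokinesis. Many of these genes are switched on together late in the cell cycle, by factors that bind CCAAT boxes and short CHR elements near the transcription start, and in brain they mark dividing cells, among them microglia, which renew by local division.

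RNA sequencing was done on 45 samples of C57BL/6 mice in 7 groups. Slice microglia were sorted as CD11b high, CD45 intermediate cells from coronal brain slices of newborn pups that had been cultured for 2 weeks and then kept for 24 h in medium alone (9 samples), with TNF at 50 ng/mL (11 samples) or with GM-CSF at 20 ng/mL (9 samples), each sample pooling 3 slices per the labels. Adult microglia were sorted by the same markers from female mice of 10 to 15 weeks, 24 h after an intraperitoneal injection of lipopolysaccharide (LPS) at 1 mg/kg (4 samples) or of phosphate-buffered saline (PBS, 4 samples). Brain tissue came from mice of the same age, with 4 samples taken 24 h after LPS at that dose and 4 samples from untreated mice, so that its control, unlike that of the adult microglia, was not an injected animal.

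Total counts ran from 5973364 to 9165485 per slice library, from 11391577 to 14216034 per adult microglia library and from 8199881 to 10368603 per brain library. Levels are given in CPM, that is as counts relative to the size of their library, scaled within each table, so that levels of different tables are shown side by side and not tested. A gene was called where edgeR's quasi-likelihood test gave a Benjamini-Hochberg adjusted p under 0.05 over all genes tested and a fold change over 1.5, which is 0.58 on the log2 scale. Microglia markers summed to between 18106 and 40047 CPM in slice libraries and between 52897 and 71099 CPM in adult microglia libraries, with neuron markers at 12.9 CPM or less in both. One library stood apart, LPS replicate 2 of the adult microglia, in which the members summed to 379 CPM against 204, 200 and 220 CPM in LPS replicates 1, 3 and 4, so the LPS results of the adult microglia are given with and without it. Per the study, the samples of the LPS experiments came from separate mice and the slice samples from slices that were treated separately, over several experiments. Which slice library belongs to which experiment is not given in the sources used here, so the experiment could not enter the test. A fit with the title code of the slice libraries as a factor is given below.

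The promoters of many members hold the elements that this gene group is known for, and 6 promoters are printed here. RefSeq promoters of GRCm38.p6, each of 250 bases before to 50 bases after a transcription start, were matched by symbol for 46 of the 58 members and hold 48 starts, because *Ect2* and *Prc1* have 2 each. For *Kif2c*, *Cdca8* and *Cdca3* the start used lay 3867, 2394 and 629 bases inside the start of the gene in GENCODE. The letters searched on both strands were CCAAT, the box of that name, TTTGAA or TTTAAA, the usual forms of the CHR element, and its variant TTCGAA. At most 1 base can belong to both a CCAAT box and a CHR match. The promoters of *Hmmr* (a spindle protein, chr11:40733388-40733687, minus strand), *Ccnb2* (cyclin B2, chr9:70421505-70421804, minus strand), *Cdk1* (the mitotic kinase, chr10:69352863-69353162, minus strand), *Plk1* (Polo-like kinase 1, chr7:122159185-122159484, plus strand), *Top2a* (topoisomerase II alpha, chr11:99024140-99024439, minus strand) and *Ncaph* (a condensin subunit, chr2:127133905-127134204, minus strand) are written 5′ to 3′ along the gene, with matches to these letters on either strand in capitals. *Ncaph* was included because it fell in adult microglia with LPS without overlap between the groups, and because none of the letters occur in its window. None occur for *Mad2l1*, *Melk*, *Nuf2* and *Nusap1* either. *Cenpf*, the other member called lower with LPS, held CCAAT 2 times and TTTGAA or TTTAAA 2 times. A link between these letters and the LPS response was not tested.
Hmmr: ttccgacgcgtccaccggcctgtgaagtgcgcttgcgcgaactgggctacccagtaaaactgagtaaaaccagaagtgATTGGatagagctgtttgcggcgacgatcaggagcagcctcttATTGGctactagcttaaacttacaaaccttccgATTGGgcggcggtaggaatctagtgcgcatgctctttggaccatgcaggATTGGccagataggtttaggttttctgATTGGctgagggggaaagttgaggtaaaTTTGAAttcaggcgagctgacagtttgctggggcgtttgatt
Ccnb2: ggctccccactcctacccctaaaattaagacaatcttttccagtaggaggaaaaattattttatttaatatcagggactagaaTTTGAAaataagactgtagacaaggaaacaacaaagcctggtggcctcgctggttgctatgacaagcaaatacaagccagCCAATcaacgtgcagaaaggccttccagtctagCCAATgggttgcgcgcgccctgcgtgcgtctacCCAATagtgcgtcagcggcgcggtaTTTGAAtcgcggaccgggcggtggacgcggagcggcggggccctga
Cdk1: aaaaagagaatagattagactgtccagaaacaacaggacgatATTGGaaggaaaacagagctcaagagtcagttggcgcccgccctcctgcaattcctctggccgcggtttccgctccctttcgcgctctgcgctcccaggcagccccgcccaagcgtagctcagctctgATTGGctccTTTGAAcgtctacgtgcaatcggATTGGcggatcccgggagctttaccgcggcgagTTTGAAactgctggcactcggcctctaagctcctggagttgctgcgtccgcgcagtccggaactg
Plk1: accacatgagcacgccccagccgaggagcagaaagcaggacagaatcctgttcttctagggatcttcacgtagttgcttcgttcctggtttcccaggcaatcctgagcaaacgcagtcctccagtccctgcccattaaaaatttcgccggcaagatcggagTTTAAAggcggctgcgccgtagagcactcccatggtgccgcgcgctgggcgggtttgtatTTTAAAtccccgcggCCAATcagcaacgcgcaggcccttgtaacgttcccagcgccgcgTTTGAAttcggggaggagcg
Top2a: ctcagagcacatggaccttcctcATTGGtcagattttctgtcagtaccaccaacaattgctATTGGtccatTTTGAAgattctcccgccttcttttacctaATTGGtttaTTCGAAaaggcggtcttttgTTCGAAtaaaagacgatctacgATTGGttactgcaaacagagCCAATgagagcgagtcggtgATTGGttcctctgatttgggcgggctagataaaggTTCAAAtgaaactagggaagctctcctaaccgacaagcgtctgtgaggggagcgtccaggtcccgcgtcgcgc
Ncaph: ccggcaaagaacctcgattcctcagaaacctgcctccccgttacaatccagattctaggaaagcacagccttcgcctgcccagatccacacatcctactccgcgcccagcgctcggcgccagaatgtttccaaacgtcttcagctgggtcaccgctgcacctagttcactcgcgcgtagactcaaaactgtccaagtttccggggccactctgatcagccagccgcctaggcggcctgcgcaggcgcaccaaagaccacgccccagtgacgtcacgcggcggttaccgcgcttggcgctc
CCAAT was found 5 times for *Hmmr*, 6 times for *Top2a*, 3 times each for *Ccnb2* and *Cdk1* and 1 time for *Plk1*. TTTGAA or TTTAAA was found 3 times for *Plk1*, 2 times each for *Ccnb2*, *Cdk1* and *Top2a* and 1 time for *Hmmr*, and *Top2a* also held TTCGAA 2 times.

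Both kinds of element were more common near the starts of members than over the 32851 promoters of the table. TTTGAA was found in 37 of 48 member promoters (77.1%) and in 17.9% of all promoters. TTTAAA, at 18.8% against 13.2%, differed less, and TTCGAA was found in 8.33% against 1.56%. CCAAT was found in 36 member promoters (75%) against 37.4%, 2 or more copies in 24 (50.0%) against 11.7%, and CCAAT together with TTTGAA or TTTAAA in 33 (68.8%) against 10.7%. In 33 promoters of a list of DNA replication and G1/S genes, TTTGAA was found in 12.1%, CCAAT in 63.6% and CCAAT with TTTGAA or TTTAAA in 18.2%. These are matches of letters in a fixed window, with no test of binding.

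In medium, slice microglia held every member at a mean of 7.16 CPM or more, and 54 of the 58 were over 10 CPM. The highest CPM were those of *Racgap1* (90.1 ± 27.8 CPM, SD, n = 9), a regulator of cytokinesis, *Top2a* (86.4 ± 19.2 CPM), which untangles DNA, and *Cdk1* (84.1 ± 26.7 CPM). Per length, as RPKM on the summed exon length, the order was led by *Pbk*, a mitotic kinase (46.9 RPKM), and *Ccnb2* (40.4 RPKM), followed by *Plk1* (19.9 RPKM) and *Cdc20* (19.8 RPKM), the activator of the anaphase-promoting complex, while *Kif15*, a spindle motor, was lowest (0.942 RPKM). In PBS-treated adult microglia 28 of the 58 members were under 1 CPM and 3 were over 10 CPM. There *Ncaph* alone, at 35.0 CPM and 8.13 RPKM, made up 23.9% of the summed level, ahead of *Incenp*, the scaffold of the chromosomal passenger complex (2.72 RPKM), and of the condensin subunits *Smc2* (1.83 RPKM) and *Smc4* (1.51 RPKM). In untreated brain tissue 24 of 56 members were under 1 CPM, and the highest per length were *Cdc25b*, a phosphatase that activates *Cdk1* (6.34 RPKM), the condensin subunit *Ncapd2* (5.18 RPKM) and *Anln*, the cytokinesis scaffold anillin (3.85 RPKM).

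The summed level lay below the medium range in all TNF libraries but 1, lay inside it with GM-CSF, and was higher with LPS in adult microglia. In slices it ran from 1572 to 3059 CPM in medium (median 2107, n = 9), from 535 to 1685 CPM with TNF (median 821, n = 11) and from 1836 to 2758 CPM with GM-CSF (median 2374, n = 9). TNF replicate 7, at 1685 CPM, was the only TNF library above the lowest medium library, and every TNF library lay below every GM-CSF library. In adult microglia the 4 PBS libraries lay between 140 and 158 CPM, below all 4 LPS libraries. Untreated brain tissue lay between 204 and 215 CPM and LPS-treated brain tissue between 202 and 243 CPM, and these ranges overlapped.

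**Figure D1:**
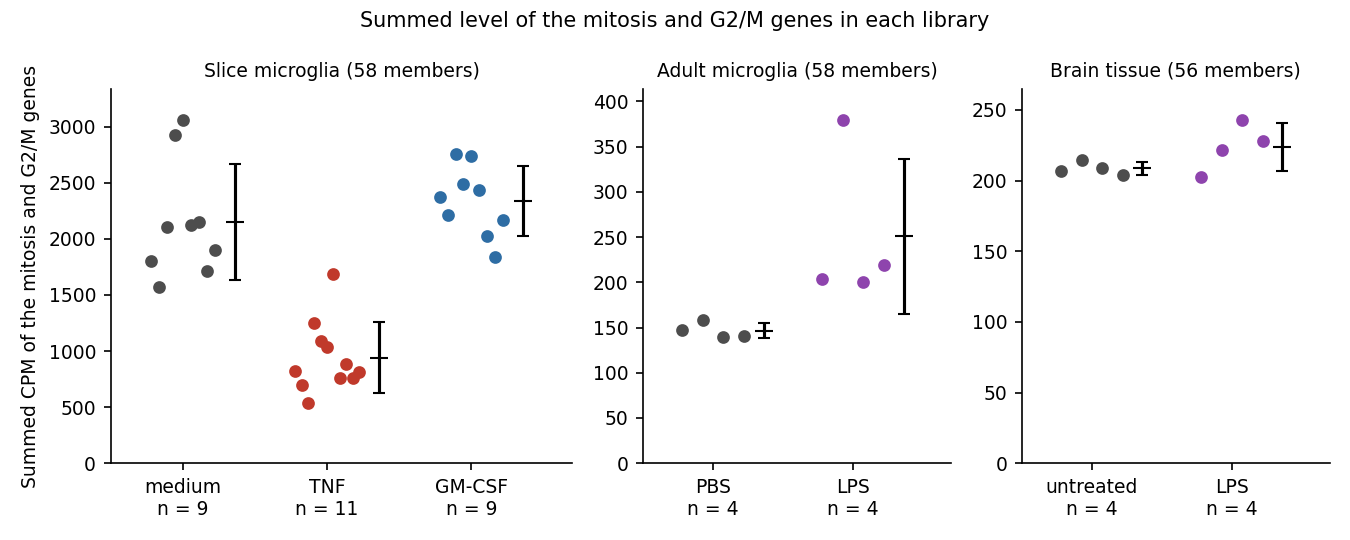
Summed CPM of the mitosis and G2/M genes in each library (points), with the mean and SD of each group beside them, for slice microglia, adult microglia and brain tissue, each panel with its own axis from 0. TNF libraries sit between 535 and 1685 CPM, below the medium mean of 2151 CPM, and LPS replicate 2 of the adult microglia sits at 379 CPM above the other LPS libraries.

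TNF lowered the mitosis and G2/M genes of slice microglia almost without exception. Of the 58 members 56 fell and 0 rose, against 20.8% of all genes called in either direction, or 11.7% of all 11313 genes tested called lower and 9.1% called higher. The median log2 fold change of the members was -1.26, and that of all genes tested was -0.03. All 58 had an adjusted p under 0.05, from 1.10e-10 for *Top2a* to 0.0355 for *Bub1* (edgeR). In 9 members every TNF library lay below every medium library, which held for 4.01% of all genes tested, and in 0 every TNF library lay above, against 6.25%. In bulk samples, fewer dividing cells and less of each transcript per cell cannot be told apart.

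Among the drivers of mitotic entry all 7 fell, with a median of -1.29. *Ccnb2* ranged from 35.7 to 128 CPM in medium (median 47.9) and from 12.9 to 46.3 CPM with TNF (median 19.1), a log2 change of -1.53 (SE 0.23, edgeR adjusted p 1.12e-06). The groups overlapped, with the highest TNF library inside the medium range. *Ccnf*, the cyclin F subunit of a ubiquitin ligase, was the one member of this role without overlap, at 40.8 to 76.2 CPM in medium and 9.86 to 34.1 CPM with TNF. *Ccna2*, cyclin A2, changed by -1.29, *Ccnb1*, cyclin B1, by -0.87 and *Cdc25b* by -0.78. *Cdk1* itself changed least of the 7, from 57.0 to 140 CPM in medium (median 79.8) to 34.2 to 106 CPM with TNF (median 46.5), a log2 change of -0.61 (SE 0.17, adjusted p 0.00469), and its groups overlapped. Without medium replicate 4, without medium replicate 5, or within the libraries with title codes 1A and 1B alone, *Cdk1* was not called.

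The 5 mitotic kinases all fell. *Plk1* ranged from 25.2 to 71.2 CPM in medium (median 42.4) and from 5.65 to 26.6 CPM with TNF (median 10.8), which overlapped narrowly, and its log2 fold change was -1.49 (SE 0.23, adjusted p 2.14e-06). *Pbk* changed by -1.51, *Aurka*, the Aurora kinase of the spindle poles, by -1.29, *Melk* by -0.95 and *Nek2*, a centrosome kinase, by -0.92. Of the 6 genes of the spindle checkpoint and of ubiquitination at anaphase, 5 fell: *Ttk*, the checkpoint kinase Mps1 (-1.34), *Ube2c*, a ubiquitin-conjugating enzyme of the anaphase-promoting complex (-1.25), *Cdc20* (-1.18), *Bub1b* (-1.06) and *Bub1* (-0.60). *Mad2l1*, the checkpoint protein Mad2, had an adjusted p of 0.0153 and a log2 fold change of -0.55, inside the fold limit, and ranged from 31.1 to 56.9 CPM in medium and from 8.96 to 44.1 CPM with TNF.

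All 7 genes of the centromere and kinetochore fell, by a median of -1.35. They were led by *Cenpf* (-1.68) and by *Nuf2* (-1.53) of the *Ndc80* complex, whose other members in the list, *Ndc80*, *Spc24* and *Spc25*, changed by -1.16, -1.19 and -0.98. Of the chromosomal passenger complex, 3 of 4 fell, namely the survivin gene *Birc5* (-1.34), the kinase *Aurkb* (-1.11) and *Cdca8*, borealin (-1.02). The scaffold *Incenp* did not pass the fold limit, at -0.51 with an adjusted p of 0.00129. *Incenp* ranged from 34.6 to 62.4 CPM in medium (median 41.1) and from 23.1 to 39.7 CPM with TNF (median 29.9), so the groups overlapped. The 8 kinesins all fell, from -0.72 for *Kif2c*, which takes microtubules apart at kinetochores, to -1.56 for *Kif20a*, a motor of cytokinesis. *Kif11*, the motor that pushes the spindle poles apart, changed by -1.52, and *Kif20b* (-1.41) was the one kinesin without overlap between the groups.

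The spindle assembly and microtubule bundling genes changed most, with a median of -1.54 over 7 genes. *Hmmr*, which binds spindle microtubules, ranged from 23.9 to 62.8 CPM in medium (median 46.2) and from 4.05 to 23.2 CPM with TNF (median 10.6). No TNF library reached the lowest medium library, and the means, 44.4 ± 12.5 and 10.9 ± 5.19 CPM (SD, n = 9 and 11), gave the largest change of all members, -2.03 (SE 0.21, adjusted p 5.97e-10). *Ckap2l*, a spindle protein, followed at -1.77, *Prc1*, which bundles the central spindle, at -1.75 (adjusted p 6.16e-09), *Ckap2* at -1.54, *Nusap1* at -1.44, *Tpx2*, the activator of Aurora A, at -0.98 and *Dlgap5* at -0.77. *Hmmr*, *Ckap2l*, *Prc1* and *Nusap1* were without overlap between the groups. The cytokinesis genes changed alike, *Racgap1* by -1.28, *Anln* by -1.24 and *Ect2* by -1.22.

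All 10 genes of condensin, cohesion and chromosome structure fell, and so did *Cdca3*, an adaptor of mitotic entry (-1.31). *Top2a* ranged from 67.0 to 117 CPM in medium (median 77.0) and from 12.8 to 40.8 CPM with TNF (median 29.3). No library of one group reached the other, and the change was -1.54 (SE 0.15, adjusted p 1.10e-10). *Esco2*, which acetylates cohesin, changed by -1.92 and *Cdca2* by -1.71, both also without overlap. *Mki67*, the Ki-67 antigen, varied widely within medium, from 16 to 74.1 CPM (median 32.4), and ran from 3.39 to 20.9 CPM with TNF (median 12.3), a change of -1.58 (SE 0.31, adjusted p 0.000101) with overlapping groups. Of condensin, *Ncapg* changed by -1.28, *Ncapd2* by -1.22, *Ncaph* by -1.13, *Smc2* by -0.84 and *Smc4* by -0.74, and *Cdca5*, sororin, by -0.99.

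**Figure D2:**
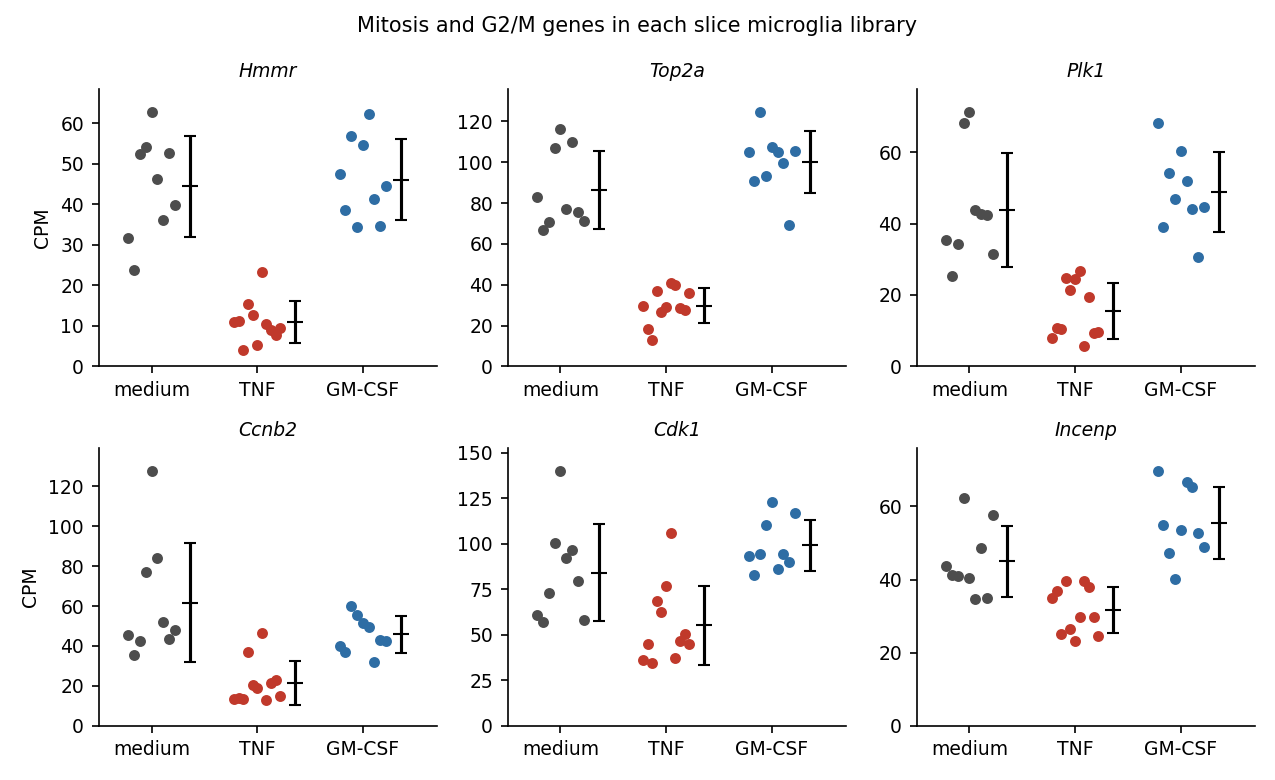
CPM of Hmmr, Top2a, Plk1, Ccnb2, Cdk1 and Incenp in each slice microglia library (points), with the mean and SD of each group, each panel with its own axis from 0. Hmmr and Top2a separate TNF from medium completely, while Cdk1 and Incenp overlap.

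Libraries differed within groups as well. Their titles carry the codes 1A, 1B, 2A and 2B, whose meaning the labels do not give, and in each slice group libraries coded 1B and 2A summed higher on average than those coded 1A and 2B. With TNF these means were 1124 CPM for 1B and 1224 CPM for 2A, against 685 CPM for 1A and 820 CPM for 2B, and the 2A mean includes replicate 7. With the title code as a factor, 57 members were called lower with TNF against medium and 0 were called with GM-CSF. In that fit 58 were lower with TNF than with GM-CSF. Within codes 1A and 1B alone 52 members were called lower with TNF against medium, and within codes 2A and 2B alone 45, with medians of -1.22 and -1.15. Without TNF replicate 7, 57 members were called lower and the median was -1.42.

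Markers of other cells moved too. Microglia markers summed to 29954 to 40047 CPM in medium, 18106 to 23105 CPM with TNF and 22882 to 25486 CPM with GM-CSF, and 6 of 11 fell with TNF and 5 of 11 with GM-CSF. The monocyte list, mainly *Fn1*, summed to 902 to 2221 CPM in medium, 1532 to 4364 CPM with TNF and 1643 to 3768 CPM with GM-CSF, and 1 of 2 tested rose with each cytokine. The neutrophil list, mainly *Csf3r*, summed to 123 to 201 CPM in medium and 94.0 to 217 CPM with TNF, where 2 of 4 tested rose, and the oligodendrocyte list to 153 to 261 CPM and 163 to 334 CPM, where 1 of 5 tested rose. The border macrophage list, mainly *Mrc1* and *Pf4*, summed to 90.5 to 214 CPM in medium and 35.1 to 109 CPM with TNF, with GM-CSF at 134 to 299 CPM, and 2 of 4 tested fell with TNF. The myeloid progenitor list, nearly all of it *Cd34*, summed to 178 to 409 CPM in medium and 57.1 to 173 CPM with TNF, while *Mpo*, *Elane* and *Ctsg* were at 0 with TNF and with GM-CSF and at 0 to 0.144 CPM on average in medium. The neural progenitor list, mainly *Nes*, summed to 4.51 to 34.4 CPM in medium and 6.72 to 23.6 CPM with TNF. With TNF, 1 of 1 tested fell in this list (-0.76) and 1 of 1 in the myeloid progenitor list (-1.48), and with GM-CSF 0 were called in either. The part of these cells in the change of the members was not tested.

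GM-CSF left the members near their level in medium. None of the 58 was called, against 10.8% of all genes tested (4.84% higher and 5.96% lower), and 1 had an adjusted p under 0.05 and 3 an unadjusted p under 0.05 (edgeR), where limma-voom gave 4 and DESeq2 1 with an adjusted p under 0.05 and neither called a member. The median was 0.15, against -0.04 over all genes tested, and 41 members lay above 0 and 17 below. The values ran from -0.43 (SE 0.23) for *Ccnb2* to 0.59 (SE 0.37, adjusted p 0.27) for *Ttk*, which reached the fold limit and not the threshold on p. The lowest adjusted p was that of *Kif2c*, which ranged from 20.0 to 42.2 CPM in medium (median 23.8) and from 26.9 to 45.9 CPM with GM-CSF (median 38.5), a log2 change of 0.45 (SE 0.16, adjusted p 0.0346). The groups overlapped in every member, where 2.67% of all genes tested had every GM-CSF library below every medium library and 2.94% had every one above. *Top2a* ranged from 69.3 to 125 CPM with GM-CSF (median 105) and gave a log2 change of 0.21 (SE 0.15), *Cdk1* gave 0.24 (SE 0.18), *Racgap1* 0.05 (SE 0.22) and *Pbk* -0.01 (SE 0.28). With SEs from 0.13 for *Incenp* to 0.50 for *Cdc25c*, small changes were not detectable. Scaling by total counts moved the median of all genes to 0.07 and that of the members to 0.26, again with 0 members called, and turned the calls over all genes from 548 higher and 674 lower to 817 higher and 459 lower.

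The other fixed representatives, with *Incenp* and *Hmmr* added, lay between -0.26 and 0.43 under GM-CSF. *Ccna2* gave 0.31, *Smc2* 0.33, *Incenp* 0.30, *Ndc80* 0.33, *Aurkb* 0.43, *Tpx2* 0.24, *Mki67* 0.18 and *Plk1* 0.16. *Ccnb1*, *Aurka*, *Hmmr*, *Cdc20*, *Bub1*, *Birc5* and *Ube2c* lay between 0.02 and 0.13, and *Kif11*, *Esco2* and *Cenpf* at -0.03, -0.14 and -0.26. None of these passed the test.

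**Figure D3:**
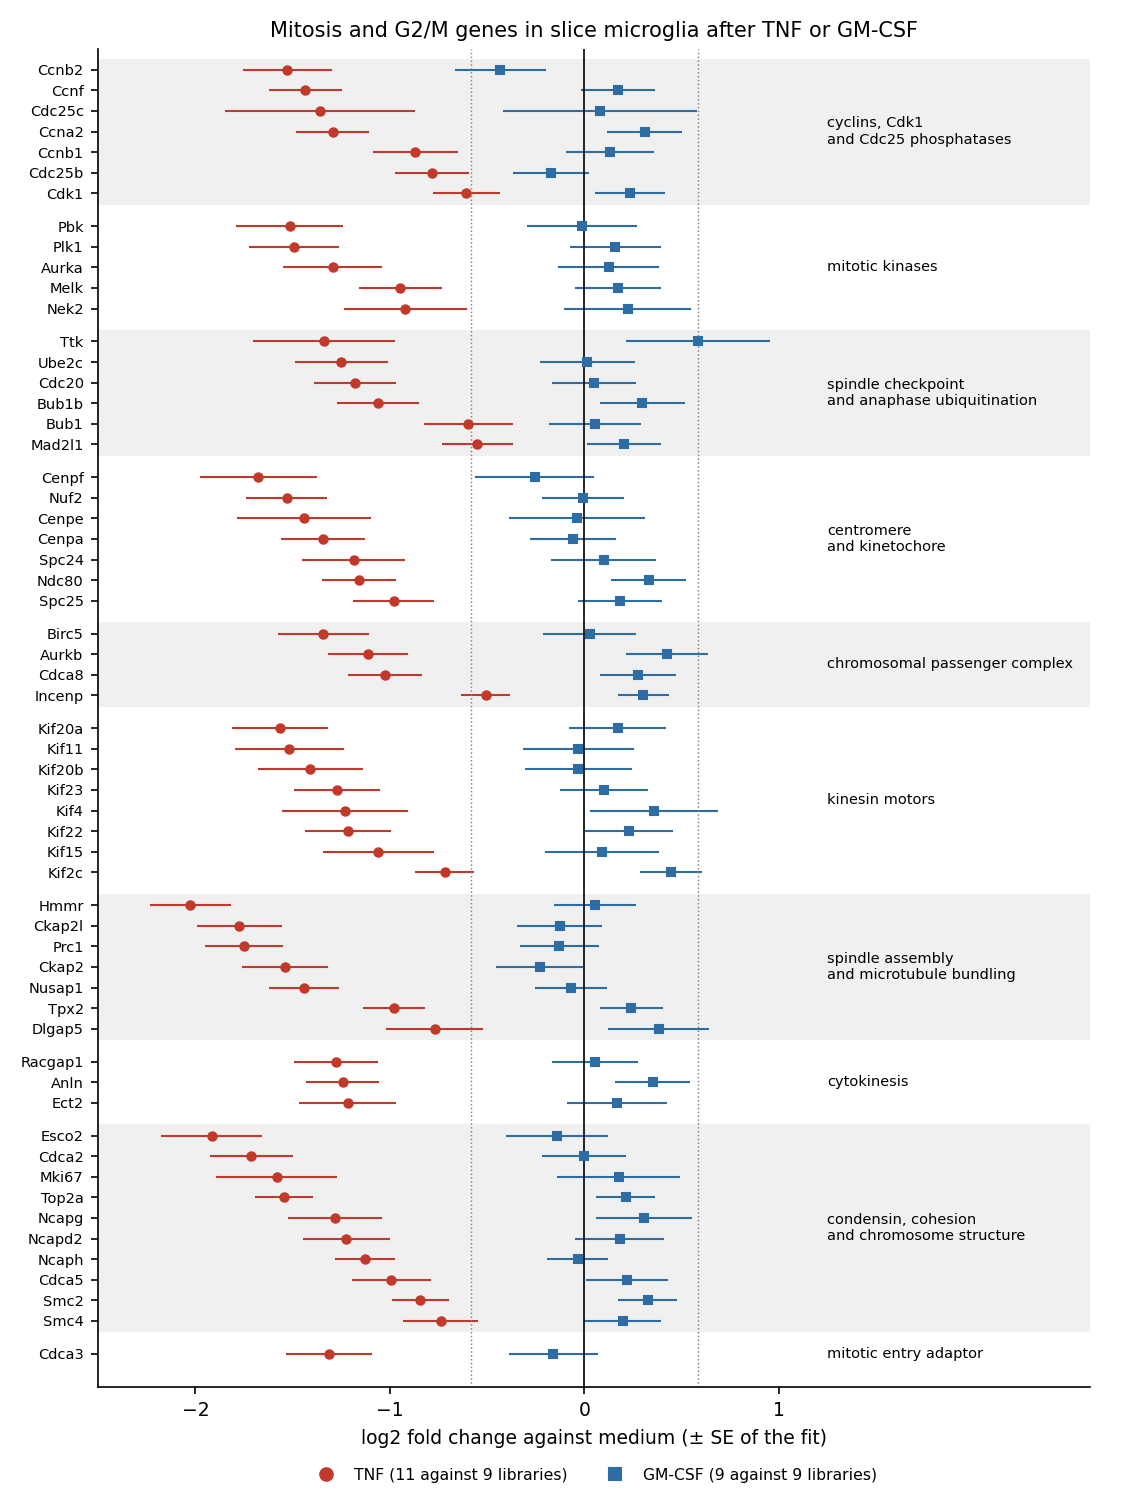
The log2 fold change against medium of each of the 58 members with TNF (circles) and GM-CSF (squares), grouped by role, with bars for the SE of the edgeR fit and dotted lines at the fold limit. All circles lie left of 0, from Hmmr at -2.03 to Incenp at -0.51, while the squares lie between -0.43 and 0.59. Both comparisons share the medium libraries.

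Both of those comparisons use the same 9 medium libraries, so the difference between the cytokines was tested directly. TNF against GM-CSF gave 58 of 58 members called lower, against 7.96% of all genes tested called lower and 8.25% called higher, with a median of -1.37 against -0.02. In 20 members every TNF library lay below every GM-CSF library, which held for 2.63% of all genes, and in 0 above, against 5.3%. The largest differences were those of *Hmmr* (-2.08), *Ttk* (-1.92), *Esco2* (-1.78), *Mki67* and *Top2a* (both -1.76, adjusted p 6.44e-12 for *Top2a*), and the smallest those of *Cdc25b* (-0.61) and *Bub1* (-0.65). *Ccnf* differed by -1.61 (adjusted p 9.14e-09). Of the other representatives, *Plk1* gave -1.65, *Ccna2* -1.60, *Aurkb* -1.54, *Ndc80* and *Kif11* -1.49, *Aurka* and *Cenpf* -1.42, *Birc5* -1.37, *Racgap1* -1.33, *Ube2c* -1.26, *Cdc20* -1.23, *Tpx2* -1.22, *Smc2* and *Kif2c* -1.17, *Ccnb2* -1.10, *Ccnb1* -1.0 and *Cdk1* -0.84. *Incenp*, which TNF did not move past the fold limit against medium, differed by -0.81 (SE 0.12, adjusted p 2.46e-06) between TNF (23.1 to 39.7 CPM) and GM-CSF (40.1 to 69.6 CPM), with no overlap. Scaling by total counts moved the median of all genes to -0.19, beside a member median of -1.55 with all 58 still called lower, and the calls over all genes from 933 higher and 900 lower to 694 higher and 1514 lower.

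In adult microglia, LPS raised part of the list and lowered a small part, from a much lower base than in slices. Of the 58 members 44 passed the filter on low counts, which a member low with PBS could pass through its LPS libraries alone. Of these 18 rose, 2 fell and 24 were not called, against 14.4% of all 12987 genes tested called higher and 13% called lower. The median was 0.77, against 0.01 over all genes tested. All 4 LPS libraries lay above all 4 PBS libraries in 15 members (24.1% of all genes tested) and below them in 1 (23.3%). The 14 members not tested, *Cdc25c*, *Bub1*, *Ttk*, *Nek2*, *Spc24*, *Kif4*, *Kif23*, *Cdca3*, *Hmmr*, *Nusap1*, *Ncapg*, *Ube2c*, *Melk* and *Esco2*, held between 9 and 120 counts over all 8 libraries.

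*Kif2c* changed most. It was at 3.58, 2.80, 1.13 and 1.30 CPM in PBS replicates 1 to 4 and at 37.9, 31.5, 36.1 and 33.4 CPM in LPS replicates 1 to 4. Every LPS library lay above every PBS library by a wide margin, and the log2 fold change was 3.96 (SE 0.27, adjusted p 1.92e-06) with all libraries and 4.01 without LPS replicate 2, one of few members that were not highest in that library. With LPS it became the highest member per length, at 7.96 RPKM. The other kinesins called were *Kif22*, which binds chromosomes (1.59), and *Kif20b* (1.15), whereas *Kif11* (0.32), *Kif15* (-0.31) and *Kif20a* (-0.50) were not.

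The chromosomal passenger complex and the condensin subunits followed with moderate changes. *Incenp* was at 16.5, 8.61, 12.4 and 9.65 CPM in the PBS replicates and at 29.6, 27.1, 23.2 and 31.0 CPM in the LPS replicates, without overlap, a change of 1.24 (SE 0.19, adjusted p 0.000214). *Aurkb* (1.53) and *Cdca8* (1.18) also rose, and *Birc5* gave 0.82 with an adjusted p of 0.111. *Smc2* was at 9.53, 9.26, 10.5 and 10.7 CPM with PBS and at 15.7, 28.6, 18.9 and 22.6 CPM with LPS, again without overlap, a change of 1.10 (SE 0.17, adjusted p 0.000207). *Ncapd2* (0.80), *Cdca2* (1.16), *Top2a* (1.65) and *Cdca5* (2.04) rose as well, while *Smc4* (0.44) and *Mki67* (0.73) were not called.

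*Ncaph* went the other way, although it encodes the kleisin subunit that joins *Smc2* and *Smc4* in condensin I. It was at 35.8, 34.0, 35.2 and 35.0 CPM with PBS and at 18.6, 28.6, 18.9 and 18.4 CPM with LPS. Every LPS library lay below every PBS library, with LPS replicate 2 the nearest, and the change was -0.73 (SE 0.13, adjusted p 0.000734). *Cenpf* was the other member that fell, at 2.51, 3.30, 1.85 and 2.30 CPM with PBS and 0.801, 1.88, 1.23 and 1.62 CPM with LPS, a change of -0.86 (SE 0.32, adjusted p 0.0395). Its groups overlapped by 1 pair of libraries, and the call was lost without any one of LPS replicates 1 and 3 and PBS replicates 1, 2 and 4.

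Of the remaining roles, *Ckap2* (2.62), *Dlgap5* (1.66) and *Tpx2* (1.08) of the spindle assembly genes rose, as did *Cenpe*, a kinetochore motor (1.83, adjusted p 0.00125), *Aurka* (1.69), *Cdc20* (1.06) and *Ccnf* (1.15). *Ckap2* entered the test through its LPS libraries, at 16, 37, 10 and 14 counts against 5, 6, 0 and 2 with PBS. So did *Cenpe*, at 22, 39, 20 and 35 counts against 7, 7, 8 and 12. That they were tested thus depended on their LPS libraries, which may hold for other members low with PBS. In the fit with no low-count filter both were still called higher. *Aurka* was at 0.502, 1.58, 0.965 and 1.87 CPM with PBS and at 2.69, 4.70, 4.44 and 4.12 CPM with LPS, without overlap. Apart from *Ccnf*, the genes of mitotic entry that were tested were not called: *Cdk1* gave 0.57, *Ccna2* 0.56, *Ccnb1* 0.61, *Cdc25b* -0.39 and *Ccnb2* -1.11 with an adjusted p of 0.0628. *Ccnb2* was at 0.573, 1.22, 0.724 and 0.864 CPM with PBS and 0.291, 0.769, 0.230 and 0.294 CPM with LPS, and only LPS replicate 2 reached the PBS range. *Racgap1* (0.38), *Anln* (0.50), *Ect2* (0.74), *Cenpa* (-0.25), *Ckap2l* (0.75), *Plk1* (-0.48), *Mad2l1* (-0.15), *Ndc80* (1.48, SE 0.60) and *Bub1b* (1.06) were not called either.

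The single library LPS replicate 2 carried much of this. Of the 58 members 52 were highest in it among the 4 LPS libraries, 37 were more than 2-fold above the mean of the other 3, and the median ratio was 2.55. *Mki67* was at 9.32 CPM there and at 1.17, 1.15 and 0.514 CPM in LPS replicates 1, 3 and 4, against 0.645, 2.87, 1.13 and 2.52 CPM with PBS. *Cdk1* was at 9.75 CPM there and at 3.13, 2.30 and 2.50 CPM in the others, against 3.08, 3.44, 3.06 and 2.23 CPM with PBS. In the other 3 LPS libraries neither gene stood above the PBS range.

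Without LPS replicate 2, 14 members were called higher and 5 lower, and the median was 0.46. All 14 were among the 18 called with it, and *Cdca2*, *Cdca8*, *Ncapd2* and *Tpx2* were lost. *Cenpf* and *Ncaph* were called lower in both fits, and *Ccnb2* (-1.60), *Kif15* (-0.94) and *Pbk* (-1.78, adjusted p 0.00692) were called lower only without it. *Pbk* was at 3.25 CPM in LPS replicate 2 and at 0.437, 0.230 and 0.147 CPM in the others, against 0.932, 1.00, 1.13 and 0.792 CPM with PBS. *Mki67* gave 0.73 with it and -0.92 without it, and *Cdk1* 0.57 and -0.16, neither called in either fit. In LPS replicate 2 the DNA replication and G1/S list summed to 1604 CPM, against 1010 to 1094 CPM in the other LPS libraries, microglia markers summed to 57330 CPM, inside the range of the others, and monocyte markers to 32.2 CPM, below the 104 to 213 CPM of the others. The source of the difference was not tested.

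Markers of other cells also differed between the PBS and LPS libraries of the adult microglia. Microglia markers summed to 64871 to 71099 CPM with PBS and 52897 to 57454 CPM with LPS, and 2 of 11 rose and 3 fell. The monocyte list went in sum from 11.7 to 17.2 CPM to 32.2 to 213 CPM, nearly all of it *Fn1* (102 CPM on average with LPS), with 2 of 5 tested called higher and 2 lower. The border macrophage list went from 8.93 to 15.3 CPM to 22.3 to 27.5 CPM, with 2 of 2 tested higher. The myeloid progenitor list, nearly all *Cd34*, went from 319 to 348 CPM to 556 to 636 CPM, with 1 of 2 tested higher. In the neural progenitor list 1 of 1 tested was lower. The neutrophil list, mainly *Csf3r*, went from 627 to 725 CPM to 447 to 675 CPM, with 5 of 6 tested lower, among them *S100a8*, from 14.6 to 2.04 CPM on average. The astrocyte list, nearly all *Slc1a3*, lay at 254 to 279 CPM with PBS and 145 to 181 CPM with LPS. The part of these shifts in the change of the members was not tested.

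**Figure D4:**
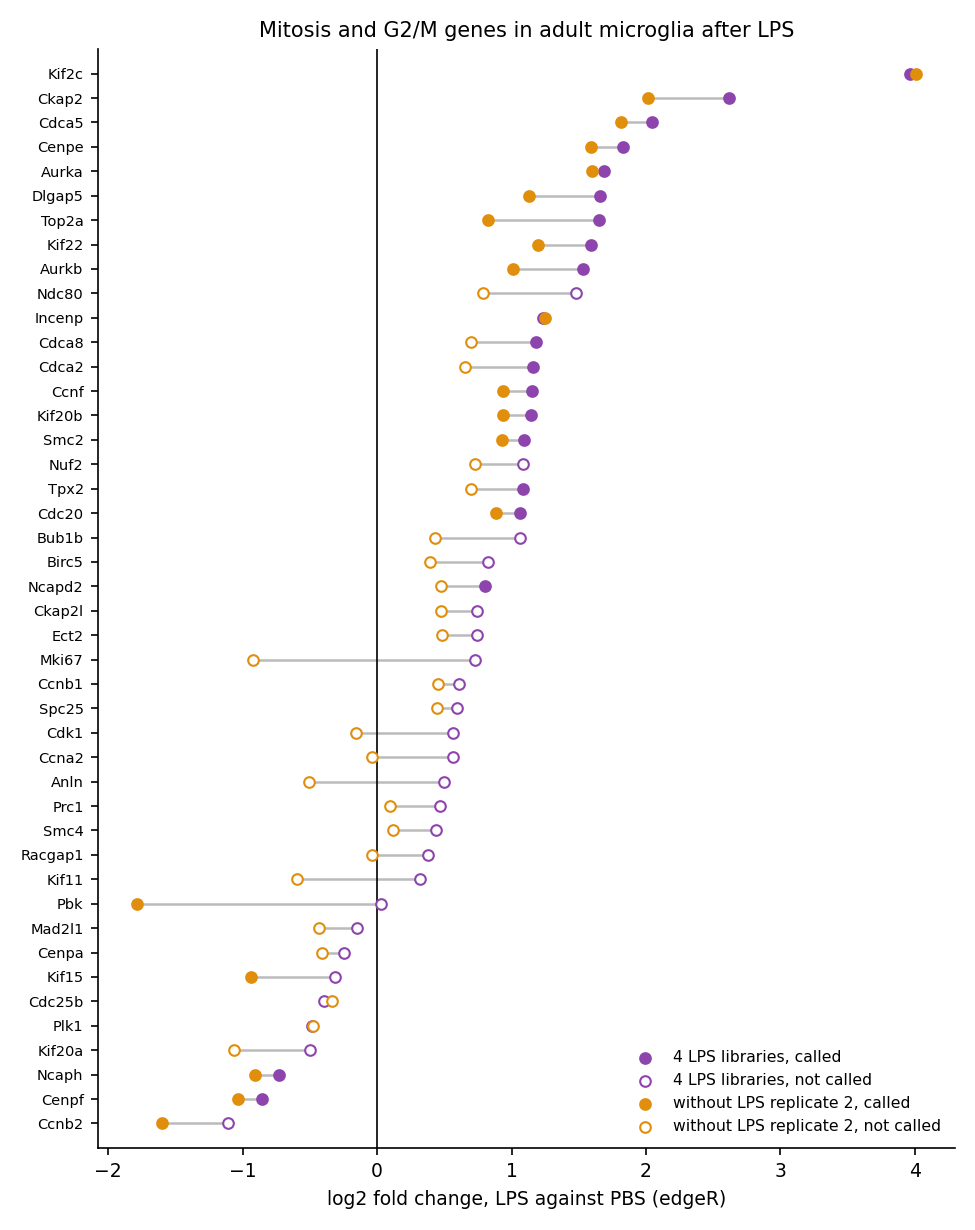
The log2 fold change with LPS against PBS in adult microglia for the 44 members tested, with all 4 LPS libraries and without LPS replicate 2, filled where called and open where not. Kif2c at 3.96 and Incenp hardly move when the library is left out, whereas Pbk moves to -1.78 and Mki67 to -0.92.

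In brain tissue LPS changed no member past both limits. Of the 56 members 30 were tested and 0 were called, against 3.18% of all 15083 genes tested (2.63% higher and 0.55% lower). The median was 0.01, against 0.00 over all genes tested, 3 members had an unadjusted p under 0.05 and 1 an adjusted p under 0.05 (edgeR), where limma-voom and DESeq2 also called none. That member was *Anln*, at 37.2, 33.5, 35.4 and 33.5 CPM in untreated replicates 1 to 4 and at 49.1, 54.1, 47.2 and 59.0 CPM in LPS replicates 1 to 4. All LPS libraries lay above all untreated ones, and the log2 fold change of 0.58 (SE 0.07, adjusted p 0.000107) fell just short of the fold limit, which it passed when libraries were scaled by total counts. *Kif20a*, at 1.5, 1.45, 1.34 and 1.46 CPM untreated and 2.00, 2.94, 2.41 and 2.02 CPM with LPS, also did not overlap, at 0.69 (SE 0.24, adjusted p 0.0832). Such separation upward held for these 2 members and for 9.09% of all genes tested, and separation downward for 0 members and 7.81% of all genes.

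None of the other brain values passed the test. The lowest were those of *Kif15* (-0.48, SE 0.42) and *Top2a* (-0.47), and *Prc1*, which was called lower without LPS replicate 3 of the brain tissue, gave -0.45 (SE 0.21, adjusted p 0.203). *Ccna2* gave -0.15, *Aurka* -0.19, *Plk1* 0.25, *Tpx2* 0.23, *Racgap1* -0.13, *Kif11* 0.08 and *Smc2* 0.08. The most abundant members not called besides *Anln* were *Ncapd2* (0.02), *Cdc25b* (-0.05) and *Incenp* (0.16), at 32.4, 23.7 and 16.2 CPM without treatment. The 26 members not tested, *Cdk1*, *Ccnb1*, *Ccnb2*, *Cdc20*, *Cdc25c*, *Bub1*, *Ttk*, *Aurkb*, *Cenpe*, *Cenpf*, *Ndc80*, *Spc25*, *Kif2c*, *Birc5*, *Cdca2*, *Cdca3*, *Cdca5*, *Ect2*, *Ckap2*, *Ckap2l*, *Dlgap5*, *Ncapg*, *Ube2c*, *Pbk*, *Melk* and *Esco2*, were each at 1.11 CPM or less on average without treatment. Oligodendrocyte markers summed to 4805 to 5152 CPM untreated and 3603 to 4128 CPM with LPS, and microglia markers to 369 to 404 CPM and 376 to 605 CPM, and the part of these shifts in the value of *Anln* was not tested.

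The LPS responses of adult microglia and brain tissue were set against each other in an interaction term over the 16 libraries of both tables. Of 49 members tested 12 had a higher response in microglia and 0 a lower one, against 9.1% and 10.6% of 16676 genes tested (19.7% in all), and the median difference was 0.97 against -0.02. They were *Ndc80* (3.66, SE 1.21), *Cdca5* (3.25), *Kif2c* (3.08, SE 0.99), *Ckap2* (2.48), *Ckap2l* (2.20), *Top2a* (2.11), *Aurka* (1.86), *Kif22* (1.70), *Nuf2* (1.47), *Incenp* (1.07, SE 0.22), *Ccnf* (1.04) and *Smc2* (1.00, SE 0.21). The smallest p were those of *Incenp* (adjusted p 0.000958), *Smc2* (0.00109) and *Kif22* (0.00421). In brain tissue *Ndc80*, *Cdca5*, *Kif2c*, *Ckap2* and *Ckap2l* were at 1.11 CPM or less in each group on average, so their differences rest on few counts. These genes did not pass the filter in brain tissue alone, and entered this test only with their microglia libraries. A fall in brain tissue can add to such a difference. *Ndc80* held 2, 7, 6 and 2 counts in untreated brain and 0, 1, 1 and 1 with LPS. *Ckap2l* held 14, 11, 8 and 11 against 6, 4, 0 and 4. In adult microglia alone *Ndc80*, *Ckap2l* and *Nuf2* were not called. The most abundant members that were not called were *Anln* (-0.13), *Ncapd2* (0.77), *Ncaph* (-0.31), *Cdc25b* (-0.34) and *Smc4* (0.41), and of the representatives *Mki67*, *Bub1*, *Ube2c* and *Esco2* were not tested and *Aurkb* (0.99), *Birc5* (0.99), *Cdc20* (1.05), *Cdk1* (0.80), *Ccna2* (0.70), *Ccnb1* (1.29), *Ccnb2* (-1.49), *Plk1* (-0.74), *Cenpf* (-0.23), *Kif11* (0.22), *Tpx2* (0.84) and *Racgap1* (0.49) were not called. Library kit, read layout and control differ with the tissue and cannot be told apart from it. Without LPS replicate 2 of the microglia, 11 were called higher, and *Ccnb2* and *Kif20a* were called lower.

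Genes of the same pathway outside the list did not all follow it. Of all genes tested, 9.1% were called higher and 11.7% lower with TNF, and 4.84% and 5.96% with GM-CSF. These shares were 8.25% and 7.96% for TNF against GM-CSF, and 14.4% and 13% with LPS in adult microglia. The core of the anaphase-promoting complex, 15 genes, had 0 called in any comparison, with medians between -0.08 and 0.06. Of 32 further kinetochore, separase and CKS genes, TNF lowered 14 and raised 1, with a median of -0.60. The gene that rose was *Pttg1*, securin, the inhibitor of separase, from 40.9 to 100.5 CPM (1.30, adjusted p 8.33e-12), and those that fell included the cohesin protector *Sgo2a* (-1.39). GM-CSF raised 1 of them, *Cenpw* (0.66), and TNF was below GM-CSF in 19 of 32 and above it in 1, *Pttg1* (1.58), with *Cenpw* (-1.13) among the lower. LPS raised 9 of 25 tested in adult microglia and lowered 0, led by *Cks1b*, a Cdk-binding subunit (2.47, adjusted p 2.35e-07), with *Cenpt* (0.80) also among them.

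Among regulators of the G2/M programme, few activators and DREAM subunits changed, and a larger part of the inhibitors and brakes did with TNF and with LPS. Of 21 activators and subunits of the DREAM and MuvB complexes, TNF lowered *E2f8* (-1.32), *Foxm1* (-1.28, from 15.4 to 6.32 CPM), *E2f2* (-0.78) and *Lin9* and raised 0. GM-CSF raised 1 of the 21, *Mybl2*, B-Myb (1.12), near the 4.84% of all genes tested. TNF was below GM-CSF in 6, with *Tfdp1* (-0.78), *E2f8* (-1.70) and *Mybl2* (-1.34) at the smallest p. In adult microglia LPS raised 3 of 19 tested, *E2f1* (2.49), its partner *Tfdp1* (0.88) and *Rbl1* (0.66), near the 14.4% of all genes tested. Among 16 tested CDK inhibitors, G2 brakes and p53 targets, TNF raised 5 and lowered 4. *Cdkn1a*, the CDK inhibitor p21, went from 395 to 979 CPM with TNF (1.31, adjusted p 2.53e-16), *Mdm2* changed by 0.86 and *Sesn1* by -1.91. In adult microglia LPS raised 5 and lowered 5 of these, with *Cdkn1c* (-2.45), *Btg2* (-0.87) and *Gadd45g* (1.5) at the smallest p, and with GM-CSF *Btg2* (-0.93), *Ccng2* and *Gadd45b* (both -0.61) fell. Between the cytokines, *Cdkn1a* (1.14) and *Gadd45b* (1.35) were higher and *Sesn1* (-1.37) lower with TNF.

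The genes that act before mitosis behaved differently under each treatment. Of 8 G1 cyclins and kinases, TNF raised *Ccnd1*, cyclin D1 (1.48), *Ccnd2* (1.67) and *Ccnd3* (0.62) and lowered *Ccne2*, cyclin E2 (-0.60), with a list median of 0.08. GM-CSF raised *Ccnd1* (0.73), *Ccnd2* (1.76), *Ccne1* (0.69) and *Ccne2* (0.63) and lowered 0, with a median of 0.52. Of the 34 DNA replication and G1/S genes TNF lowered 8, among them *Rrm1* (-0.75), *Rrm2* (-1.19) and *Lig1* (-0.61), with a list median of -0.35. GM-CSF raised 12 of them and lowered 0, with *Tyms* (1.06), *Mcm4* (0.67) and *Mcm6* (0.59) at the smallest p and a median of 0.50. Directly compared, TNF was below GM-CSF in 27 of 34, with *Rrm1* (-1.12), *Mcm7* (-1.18) and *Mcm6* (-0.88) at the smallest p, while among the G1 genes *Ccnd1* (0.76) was higher with TNF and *Ccne2* (-1.23) and *Cdk2* (-0.63) lower. LPS raised 27 of 34 in adult microglia, with a median of 1.61 and *Fen1* (1.36), *Mcm2* (2.54) and *Cdt1* (1.48) at the smallest p, and 23 of 34 differed upward from the brain response, with *Mcm2* (2.72), *Mcm5* (2.43) and *Prim1* (2.27) at the smallest p. Of the G1 cyclins LPS raised *Ccnd2* (5.33), *Ccne1* (3.10) and *Ccnd1* (0.60) in adult microglia. In brain tissue 0 genes of any of these lists were called (edgeR). The LPS responses of the tissues also differed in *Ccnd2* (5.21), *Ccne1* (3.26), *Cks1b* (2.49), *Cenpt* (0.98), *E2f1* (2.32), *Tfdp1* (0.88), *Wee1* (2.63) and *Gadd45g* (1.47), all higher in microglia, and in *Cdkn1c* (-2.42) and *Lin52* (-0.76), lower there.

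These lists were also counted without LPS replicate 2 of the adult microglia, which was added after seeing the data. The DNA replication and G1/S list then had 27 of 34 called higher and 0 lower, with a median of 1.39 in place of 1.61. In the interaction 21 in place of 23 differed upward from the brain response. Among those not called there were *Mcm6* (2.00, SE 3906) and *Mcm10* (3.22, SE 6596), whose SEs show that the fit gave no usable test. The lower count is therefore not a measure of what that library contributed. The kinetochore, separase and CKS genes had 8 called higher and 1 lower, *Cenpq* (-0.64), with a median of 0.39, *Cenpu* (0.56) lost its call, and 7 in place of 10 differed upward from brain. Of the activators and DREAM subunits, *Rbl1* (0.53) lost its call and *Lin52* (-0.59) was called lower, which left 2 higher and 1 lower. The inhibitors and brakes had 5 higher and 7 lower of 17 tested, with *Cdkn2b* (-1.77) and *Cdkn2c* (-1.0) added to those that fell, and the G1 list again had 3 higher and 0 lower, with a median of 0.34 in place of 0.54.

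**Figure D5:**
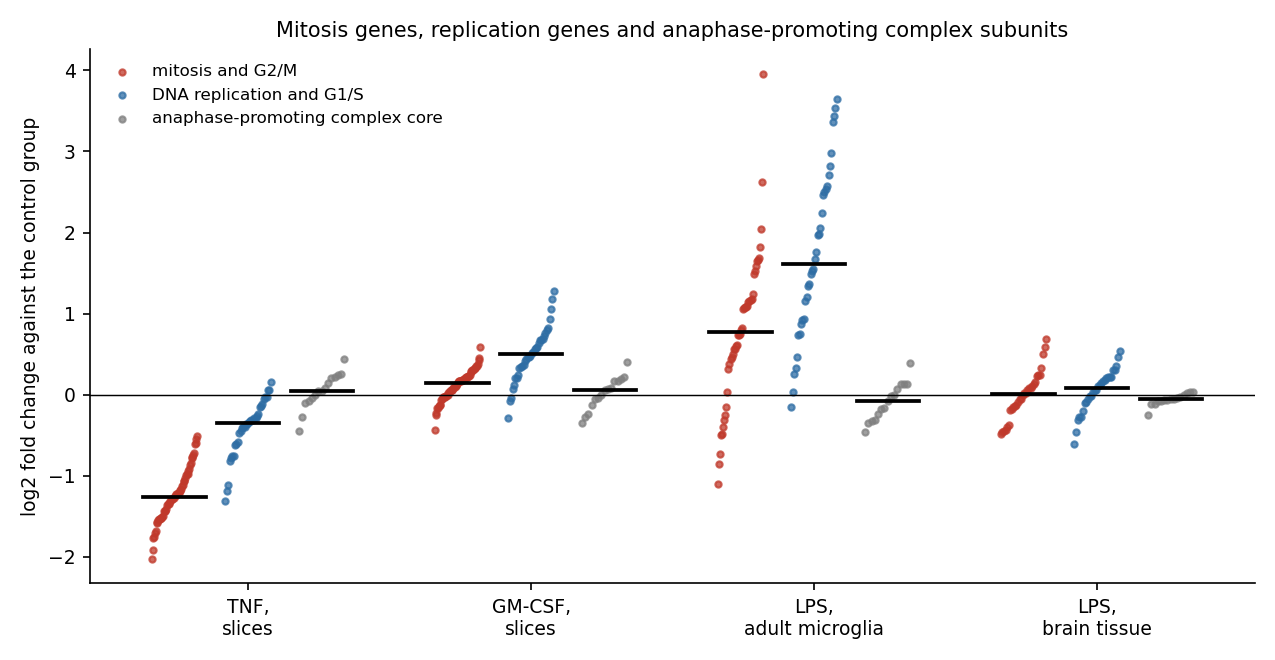
The log2 fold change against the control group of each tested gene (points) of the mitosis and G2/M list, the DNA replication and G1/S list and the core of the anaphase-promoting complex, with the list median as a bar, in 4 comparisons. With TNF the mitosis genes have a median of -1.26 and the replication genes -0.35, with LPS in adult microglia 0.77 and 1.61, and the complex subunits stay near 0.

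How closely the members varied together differed between the tables. The correlation of each member with the mean log2 CPM of all members (Pearson's r) had a median of 0.896 over the 29 slice libraries, with the lowest at 0.605 for *Cenpe*, of 0.803 over the 8 adult microglia libraries for the 44 tested, and of 0.173 over the 8 brain libraries for the 30 tested. These values include the differences between treatments and the shared scaling of a library, and they are descriptions. Outside the list the genes most like its mean in slices were *Stmn1*, stathmin (0.976), the histone gene *H2afx* (0.967), *Rrm2* (0.945), *Rrm1* (0.943) and *Asf1b* (0.940). In adult microglia they were *Slc43a3* (0.968), *Tk1* (0.958), *Rfc1* (0.952), *Pclaf* (0.951) and *Il11ra1* (0.950), and in brain tissue *Zfp738* (0.974), *Aaas* (0.972), *Rtca* (0.950), *Hr* (0.945) and *Sar1b* (0.943). These are the highest values among many genes, and over 8 libraries values this high may arise by chance. In brain tissue the members themselves, with a median of 0.173, hardly followed their mean.

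Reads of some members could be shared with other genes. By the annotation 27 members overlap no other gene, 12 overlap a gene on their own strand and 22 one on the other strand, and 4 have a pseudogene named after them, *Ccnb1*, *Ccnb2*, *Kif4* and *Kif22*. Whether strand was used in counting is not given in the sources used here, so reads of overlapping genes cannot be told apart. *Hmmr*, *Kif2c*, *Ncaph*, *Cdk1*, *Cdca5*, *Ckap2*, *Esco2* and *Aurkb* overlap no other gene.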

How the data were processed

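Gene counts of the slice microglia and expected counts of the adult microglia and brain tissue, as deposited by the authors, were used. The submitters' processing notes name STAR 2.7.0a, featureCounts, Subread 1.6.4 and mm10, with no role or order. The aligner and counter behind the expected counts, like the use of strand, is not given in the sources used here. Per the study's methods and the labels, sorted cells were processed with SMART-Seq v4 and Nextera XT and brain tissue with TruSeq.

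Identifiers were named by GENCODE M21. Expected counts were rounded, which altered table totals by at most 0.000931%, and 92 brain rows that name no gene held 0 counts and were left out. Genes passing edgeR's expression filter (minimum count 10, minimum total 15) were tested per table with edgeR 4.0.16 in R 4.3.3 (TMM scaling, robust quasi-likelihood test, all groups of a table in 1 fit), and the interaction over 16 libraries. P-values were Benjamini-Hochberg adjusted over all genes tested. CPM used TMM-scaled library sizes and RPKM the summed exon length. Likeness between genes was Pearson's r of log2(CPM + 0.5). Alternatives were DESeq2 1.42.0, limma-voom 3.58.1, other filters and scaling, title codes, a replicate block and leaving out libraries. The fit was tested on simulated data. Replicate numbers were not taken to pair the samples.

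The members and gene lists were chosen with earlier results of these data known. Named with values were 21 representatives of the roles in each comparison (untested ones are listed as such), the 5 called members with the largest change in each direction, the 3 with the smallest p, members not tested, those not called or called against the majority (the 5 most abundant where over 10), and from each other list the 3 called genes with the smallest p, of which 1 gene is not reported here. Others were added after their values were seen.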

Additional observations from a re-analysis of the deposited data

Results flagged for a closer look

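Gaps between a library and the rest of its group were tested with Dixon's ratio in groups of 4 to 10 samples, where chance marks about 1 in 20 groups. Of 6 summed levels 1 was marked, the 379 CPM of LPS replicate 2 in adult microglia. The TNF group, with 11 samples, was outside this range and not tested. There replicate 7 summed to 1685 CPM and the next highest, replicate 4, to 1247 CPM. Of 124 tests on the 21 representatives 12 were marked, and 7 of these were high values in LPS replicate 2: *Mki67* at 9.32 CPM, *Top2a* at 13.3 CPM, *Cdk1* at 9.75 CPM, *Ccna2* at 4.36 CPM, *Ccnb2* at 0.769 CPM, *Tpx2* at 4.19 CPM and *Esco2* at 4.45 CPM. Over all members 37 of 344 tests were marked, 21 of them in that library.

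The remaining marks were single values. *Birc5* was high in medium replicate 5, at 87.8 CPM. *Kif11* was low in PBS replicate 3, at 0.161 CPM. In brain tissue *Ndc80* was at 0 CPM in LPS replicate 1, *Smc2* was low in LPS replicate 2, at 10.6 CPM, and *Aurkb* was high in untreated replicate 1, at 0.401 CPM.

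The LPS response differed between adult microglia and brain tissue in 12 members by the interaction test (edgeR, adjusted p between 0.000958 and 0.0291). The log2 differences were 3.66 for *Ndc80*, 3.25 for *Cdca5*, 3.08 for *Kif2c*, 2.48 for *Ckap2*, 2.20 for *Ckap2l*, 2.11 for *Top2a*, 1.86 for *Aurka*, 1.70 for *Kif22*, 1.47 for *Nuf2*, 1.07 for *Incenp*, 1.04 for *Ccnf* and 1.00 for *Smc2*.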

How the results depend on the processing

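The 56 members called lower with TNF ranged from 45 (title codes 2A and 2B alone) to 58 over the alternatives, and the 58 lower than with GM-CSF from 50 to 58. Over all member fold changes and alternatives, 4473 kept their side of the threshold, and 82 lost and 54 gained a call. A change of sign that involved a call was found for 1, *Pbk* in adult microglia, at -1.78 without LPS replicate 2. Leaving out single libraries gave -1.78 to 0.40 for *Pbk*. Changes of sign with no call in either fit count as kept, such as *Mki67* from 0.73 to -0.92 without LPS replicate 2. With no fold limit the genes called over all genes were 4476 for TNF, 2892 for GM-CSF, 3486 for TNF against GM-CSF, 6703 for adult microglia, 1533 for brain tissue and 5135 for the interaction, and 1 member was called higher with GM-CSF (*Kif2c*) and 1 in brain tissue (*Anln*). GM-CSF gave 785 calls over all genes within title codes 2A and 2B. At a minimum count of 30, 21 members were tested in adult microglia, of which 11 were called higher and 1 lower, and 1 was called higher in brain tissue and 7 in the interaction. With no filter 1 member was called lower in adult microglia, and with total counts 1 was called higher in brain tissue. Leaving out 1 library at a time gave, in adult microglia, 14 to 22 members higher, 1 to 5 lower and 3366 to 4044 genes in all. It gave 0 to 1 members higher and 0 to 1 lower in brain tissue (*Anln* higher, *Prc1* lower without LPS replicate 3; 412 to 543 genes in all), and 10 to 15 higher and 0 to 2 lower in the interaction (3117 to 3661 genes). The highest-summing slice libraries, chosen after seeing the data, were left out in turn and gave 52 to 57 members lower with TNF. In the interaction, *Kif2c* lost its call without untreated replicate 1 or 3, and *Ndc80* without untreated replicate 2 or 3. Replicate numbers were not taken to pair the samples: correlations of same-numbered libraries were over 0.1 in 4 of 9 pairs for TNF and medium and in 0 of 4 in each LPS comparison. For TNF and medium they ran from 0.041 to 0.184, with a median of 0.090 against -0.025 for other numbers. Slice libraries of the same title code had medians of 0.077 to 0.086, against -0.033 to -0.021 for other codes. The main test leaves the title code out. With the replicate block, 56 members were lower with TNF, 0 were called with GM-CSF, 57 were lower with TNF than with GM-CSF, 20 were higher and 2 lower in adult microglia and 0 were called in brain tissue, and over all genes 2415, 1256, 1826, 3452 and 448 were called in these comparisons. The causes were not tested. Members at a few CPM in adult microglia and brain tissue rest on few counts, which limits what could be detected there.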
